A study of Mus musculus with 8 samples.

Results

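Genes for the thin filament, titin and the Z-disc make up the non-myosin part of the cardiac sarcomere, and 37 of them were followed in left ventricles of wild-type (WT) and Nbdy knockout (KO) mice. They were the rows, out of 38293 Ensembl gene identifiers in a raw read-count table, whose identifier carries 1 of the 37 listed symbols in GENCODE M21. All 37 had a row of their own. The list also holds M-band genes (Myom1, Myom2, Obsl1), intermediate filament genes (Des, Synm), assembly factors (Unc45b, Smyd1), Xin repeat genes (Xirp1, Xirp2) and the stretch-responsive gene Ankrd1, so it is wider than thin filament and Z-disc alone.

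Poly(A) RNA was measured in 8 hearts, 1 library each, from untreated male C57BL/6 mice aged 8 weeks. WT replicates 1 to 4 carry no named alteration, and KO replicates 5 to 8 are labelled as knockouts of mORF4, another name of Nbdy. The labels do not describe the knockout allele, and no litter, batch or date is given. The Nbdy product is a microprotein of the mRNA decapping machinery. Nbdy RNA lay between 19.0 and 20.1 CPM in the 4 WT libraries and between 9.58 and 10.4 CPM in the 4 KO libraries, so the libraries separated by genotype label but the transcript stayed present in KO (log2 fold change -0.97 ± 0.11 SE, adjusted p = 0.0060 by edgeR's quasi-likelihood test). CPM is the count of a gene relative to the scaled library size, per 1e+06 counts. Library totals ran from 11101901 to 14699949 counts, and the 37 genes took 5.10 to 6.93% of them. Mitochondrial genes took 29.2% in WT replicate 1, 19.4 to 19.9% in the other WT libraries and 23.0 to 26.7% in KO. With mitochondrial counts left out, the 37 genes took 7.20 to 8.60%.

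In the sarcomere, myosin heads of the thick filament pull on thin filaments of actin, along which tropomyosin and the troponin complex lie as the calcium switch. Thin filaments are anchored at the Z-disc by alpha-actinin, and titin spans from the Z-disc to the M-band and works as a molecular spring. The Z-disc is also where mechanical load is sensed, and several genes of its proteins respond to stretch and injury in rodent hearts. Of the cardiomyocyte markers Myh6, Myl2, Myl3, Ryr2, Pln, Tnnt2, Tnni3 and Actc1, all 8 were abundant in each library, at 64440 to 79750 CPM in sum. Markers of skeletal muscle, a tissue that shares many of these proteins, summed to 5.94 to 7.93 CPM in WT and 6.98 to 8.96 CPM in KO over 11 genes. Of these, 2 (Mylpf and Tnni2) had enough counts to be tested, and Myh1, Myh2, Pvalb, Tnnc2 and Mybpc1 were at 0 counts in at least 1 library.

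Results below turn on the cardiac and skeletal actin genes, whose shares are compared, and on genes high together in a single WT heart. Upstream sequences are shown for both actin genes and for 3 of the others, 5 in all. Each is the 250 bases before the RefSeq start in GRCm38.p6, 5′ to 3′ on the strand of the gene, with matches to 4 motifs in capitals. The motifs were searched on both strands: the CArG box bound by serum response factor, the M-CAT element CATTCC bound by TEAD factors, the MEF2 site, and the AP-1 site TGACTCA. The windows are chr2:114052876-114053125 (minus strand) for Actc1, chr8:123894776-123895025 (minus strand) for Acta1, chr19:36119845-36120094 (minus strand) for Ankrd1, chr6:29433006-29433255 (plus strand) for the second of 2 listed starts of Flnc, and chr2:67445752-67446001 (plus strand) for Xirp2.
Actc1: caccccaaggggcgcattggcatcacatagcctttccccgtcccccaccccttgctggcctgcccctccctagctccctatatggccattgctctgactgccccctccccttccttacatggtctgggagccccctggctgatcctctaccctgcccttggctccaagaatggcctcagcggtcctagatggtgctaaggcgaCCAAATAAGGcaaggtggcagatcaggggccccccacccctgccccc
Acta1: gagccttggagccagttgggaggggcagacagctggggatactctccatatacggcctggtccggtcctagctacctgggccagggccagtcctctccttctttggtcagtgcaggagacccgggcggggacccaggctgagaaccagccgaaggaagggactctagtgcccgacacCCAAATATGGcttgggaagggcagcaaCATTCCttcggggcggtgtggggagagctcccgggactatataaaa
Ankrd1: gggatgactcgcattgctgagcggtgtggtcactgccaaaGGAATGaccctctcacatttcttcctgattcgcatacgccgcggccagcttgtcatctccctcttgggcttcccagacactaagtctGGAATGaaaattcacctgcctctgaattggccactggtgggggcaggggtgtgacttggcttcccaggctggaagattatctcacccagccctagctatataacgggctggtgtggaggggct
Flnc: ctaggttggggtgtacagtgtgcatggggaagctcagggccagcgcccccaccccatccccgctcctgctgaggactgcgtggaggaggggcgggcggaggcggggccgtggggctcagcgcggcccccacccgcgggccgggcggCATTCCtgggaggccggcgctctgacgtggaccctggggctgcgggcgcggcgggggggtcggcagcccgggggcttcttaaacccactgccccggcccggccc
Xirp2: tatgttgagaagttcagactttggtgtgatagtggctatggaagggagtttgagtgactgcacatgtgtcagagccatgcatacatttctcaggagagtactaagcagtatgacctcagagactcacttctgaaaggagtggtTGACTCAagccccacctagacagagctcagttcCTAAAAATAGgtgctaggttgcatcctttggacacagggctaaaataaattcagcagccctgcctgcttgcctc
Both actin genes hold 1 CArG box near the start, 47 bases before it in Actc1 and 73 bases before it in Acta1, and Acta1 holds an M-CAT element as well. Ankrd1 holds 2 M-CAT elements on the opposite strand, Flnc 1 on its own strand, and Xirp2 an AP-1 site and a MEF2 site. The window of the other listed start of Flnc held no match. Of the other genes high in that WT heart, Pdlim3 and Synpo2l had a match, and Xirp1, Pdlim5 and Csrp3 had none listed. None of the 4 motifs overlaps another in these windows. Windows were listed for 32 of the 37 genes. A CArG box lay in 5 of the 32 (Acta1, Actc1, Ldb3, Myom1 and Nebl) and in 1.62% of 27025 mouse genes with such windows, and an M-CAT element in 10 of the 32 and in 14.4% of all. The MEF2 site was matched in 4 of the 32 (3.42% of all), and the AP-1 site in 2 of the 32 (5.16% of all). These are letter matches and show no binding.

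**Figure D1:**
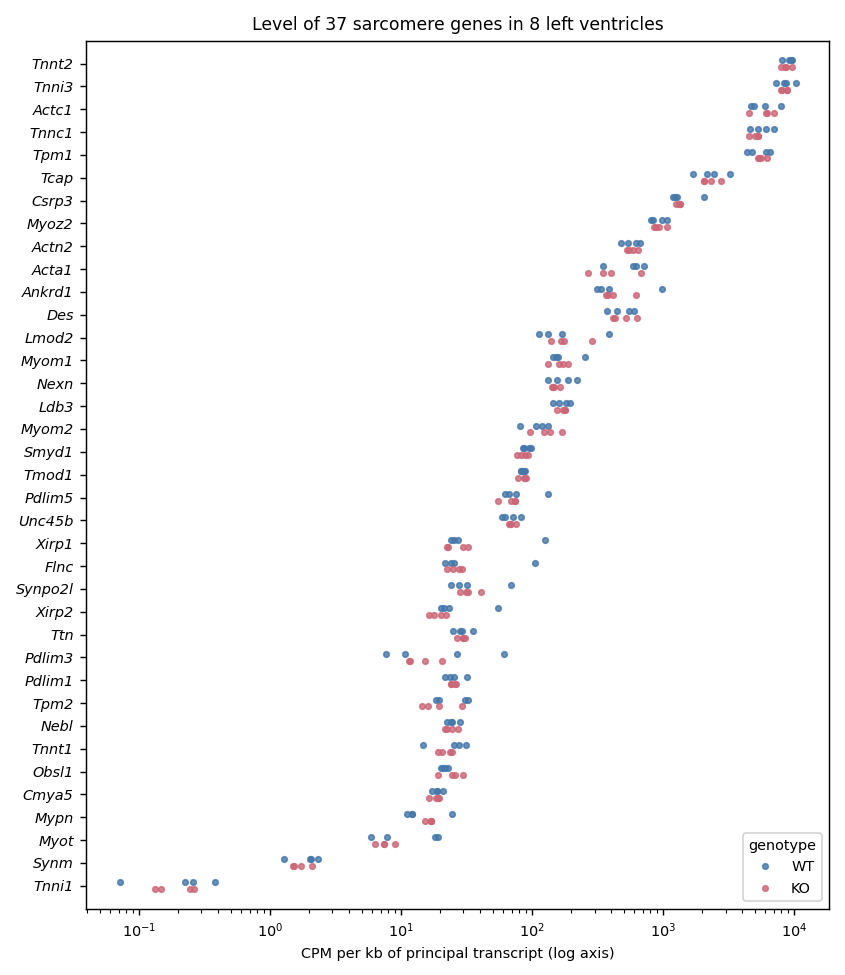
CPM per kb of the principal transcript on a log axis for all 37 genes, with 1 point per library (blue WT, red KO) and genes ordered by their WT mean. Levels fall from 9124 for Tnnt2 to 0.234 for Tnni1, and the points of both genotypes overlap for every gene.

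The transcripts of the regulated thin filament stood at the top. Levels between genes are compared here per kb of the annotated principal transcript, which makes long and short genes comparable but leaves any 3′ bias of poly(A) libraries in place. Tnnt2 (cardiac troponin T, which ties the complex to tropomyosin) had 9124 ± 690.9 CPM per kb and Tnni3 (cardiac troponin I, the inhibitory subunit) 8693 ± 1228 in WT (SD, n = 4), closer to each other than their spread. Actc1 (cardiac alpha-actin) at 5896 ± 1453, Tnnc1 (the calcium-binding troponin C) at 5758 ± 1046 and Tpm1 (alpha-tropomyosin) at 5470 ± 1084 CPM per kb followed and also lay within their spread. Tcap (telethonin, which caps titin at the Z-disc) was next at 2389 ± 666.2 CPM per kb. Among the remaining structural genes, Actn2 (alpha-actinin) had 575.1 ± 83.9 CPM per kb in WT and Des (desmin) 490.7 ± 99.9. Ttn (titin), whose principal transcript has 100404 bases, had 29.5 ± 4.41 CPM per kb and a place of 26 of 37. At the bottom lay Synm (synemin, a desmin partner) with 1.92 ± 0.447 and Tnni1 (slow skeletal troponin I) with 0.234 ± 0.127 CPM per kb.

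The comparison of KO with WT asked whether loss of Nbdy alters the RNA of these proteins. None of the 36 tested genes passed an adjusted p of 0.05, where 3 of 13336 genes did over the whole table (0.0225%). Tnni1 had 1 to 5 counts per library, too few to be tested. At an unadjusted p under 0.05 there were 2 of the 36, Myot and Xirp2, against 6.4% of all genes tested, and the smallest adjusted p of any of the 36 was 0.768 in edgeR. DESeq2 called 0 of 35, since it gave no adjusted p for Xirp1, and limma-voom 0 of the 36, with 11 and 3 genes called over the whole table (0.0825% and 0.0225%). No gene of the 37 had KO and WT libraries that do not overlap, which 4.12% of all tested genes had. In the edgeR fit, 11 of the 36 log2 fold changes were positive and 25 negative, with a median of -0.07 beside -0.0032 over all genes. For 22 of the 36 the 95% interval of the log2 fold change lay within a 1.5-fold change either way. The share over all genes was not counted, and the median SE was 0.177 for the 36 beside 0.158 over all tested genes. In bulk tissue, fewer cells of a type and less RNA per cell cannot be told apart.

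**Figure D2:**
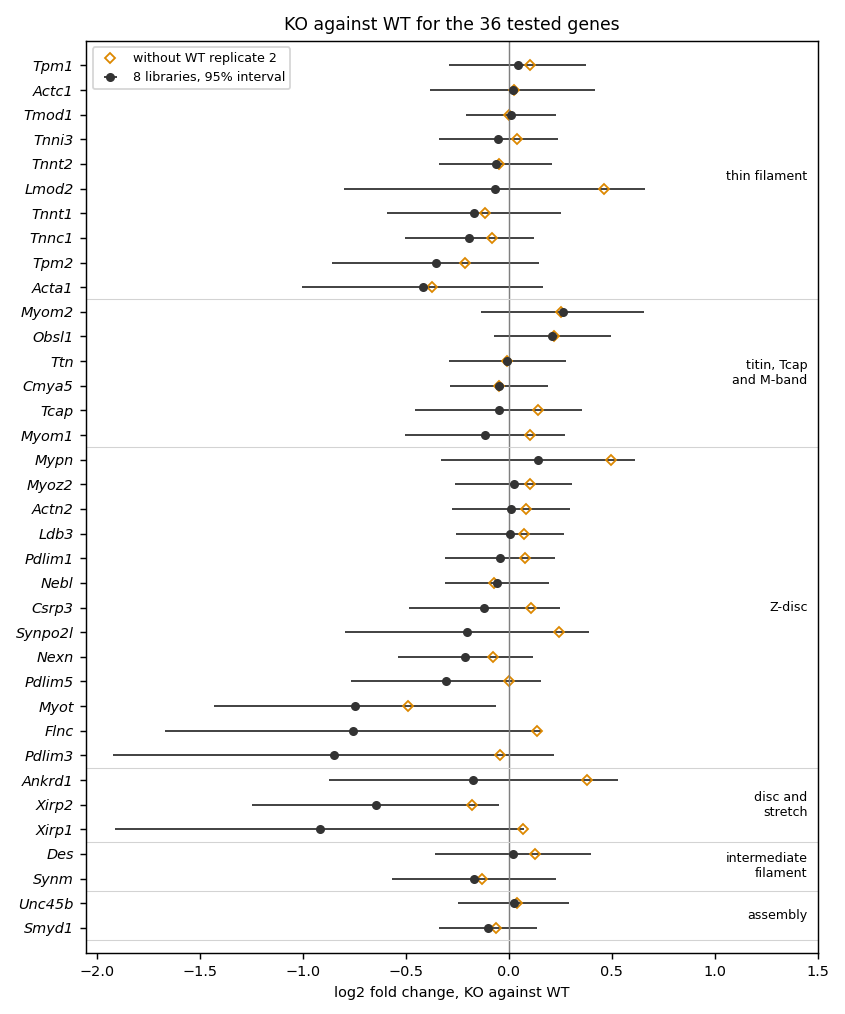
Log2 fold change of KO against WT for the 36 tested genes by role, with black points and 95% intervals from all 8 libraries and orange diamonds without WT replicate 2. The widest intervals belong to Pdlim3, Xirp1 and Flnc, whose diamonds lie near 0 at -0.04, 0.07 and 0.14.

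The core of the thin filament had values close to 0. Tnnt2 was measured at 9340, 10877, 11133 and 10545 CPM in WT replicates 1 to 4 and at 9947, 9183, 9740 and 11171 CPM in KO replicates 5 to 8. The groups overlapped throughout, and the log2 fold change was -0.07 ± 0.13 (SE, 95% interval -0.34 to 0.21, adjusted p = 0.946 in edgeR). Tnni3 had 6661, 9379, 7706 and 7968 CPM in WT and 8018, 7245, 7340 and 7999 CPM in KO, a log2 fold change of -0.05 ± 0.13. Its 4 KO libraries lay inside the WT range. Tnnc1 stood at -0.19 ± 0.15. Tpm1 had 8272, 11700, 9018 and 12536 CPM in WT and 10108, 10288, 10576 and 11774 CPM in KO (0.04 ± 0.15). WT replicates 1 and 3 were below every KO library, and WT replicate 4 was above all of them.

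The sarcomeric actins varied more between WT hearts (coefficients of variation of 24.6% for Actc1 and 27.7% for Acta1) than Tnnt2 (7.57%) and Tnni3 (14.1%). The median over the 36 tested genes in WT was 22.9%. Actc1 had 7328, 8773, 6964 and 11673 CPM in WT and 6720, 9218, 8988 and 10286 CPM in KO, with a log2 fold change of 0.02 ± 0.19 (SE, 95% interval -0.38 to 0.42). The lowest of the 8 libraries was KO and the highest WT. Acta1, the skeletal alpha-actin that rodent hearts use before birth and under load, had 1035, 896.5, 500.2 and 857.2 CPM in WT and 386.3, 504.5, 989.1 and 578.9 CPM in KO. One WT library was low and 1 KO library was high, and the log2 fold change came to -0.42 ± 0.27 (SE, 95% interval -1.01 to 0.17, adjusted p = 0.801 in edgeR). Some reads may map to both actin genes, and how such reads were counted is unknown. Their part in the split between Acta1 and Actc1 was not tested.

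Genes of slow, fetal or skeletal isoforms were minor in all hearts. As shares of a pair, per length of the principal transcript, Acta1 made up 12.6, 9.43, 6.82 and 6.96% of Acta1 plus Actc1 in WT and 5.53, 5.28, 10.1 and 5.42% in KO. The KO values were below all WT values except in replicate 7. The difference of -2.37 percentage points (8.95 ± 2.7% against 6.58 ± 2.34%, SD, n = 4 each) had an exact two-sided permutation p of 0.20 over 70 assignments, whose smallest p is 0.0286, and an adjusted p of 0.457 over 4 pairs. Tpm2, beta-tropomyosin, made up 0.473 ± 0.152% of Tpm2 plus Tpm1 in WT and 0.351 ± 0.122% in KO (exact permutation p = 0.229, adjusted p = 0.457). Tnnt1, slow skeletal troponin T, made up 0.267 ± 0.0614% of Tnnt1 plus Tnnt2 in WT and 0.252 ± 0.0241% in KO (exact permutation p = 0.714, adjusted p = 0.714). Tnni1 held 3, 3, 5 and 1 counts in WT and 4, 2, 2 and 3 counts in KO, a share of at most 0.0045% of Tnni1 plus Tnni3, with an exact permutation p of 0.657 (adjusted p = 0.714).

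**Figure D3:**
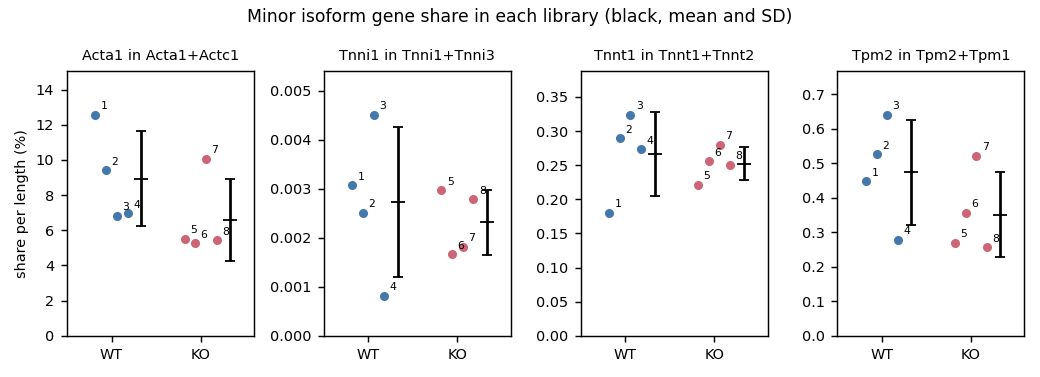
Share of the minor gene in each isoform pair, in percent per length of the principal transcript, for each library (numbered by replicate), with mean and SD in black. Acta1 reaches 12.6% in WT replicate 1 and 10.1% in KO replicate 7, while Tnni1, Tnnt1 and Tpm2 stay under 1%.

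Tpm2 had 41.2, 68.3, 64.2 and 38.7 CPM in WT and 30.2, 40.7, 61.3 and 33.5 CPM in KO (log2 fold change -0.36 ± 0.23). WT replicates 2 and 3 and KO replicate 7 were the high libraries. Tpm2 is also a smooth muscle tropomyosin, and the 5 smooth muscle markers (Myh11, Acta2, Tagln, Cnn1, Smtn) summed to 551.0, 722.4, 929.3 and 719.3 CPM in WT and 538.4, 712.4, 1005 and 687.9 CPM in KO. Their highest WT and KO libraries were replicates 3 and 7, and their part in the Tpm2 values was not tested. Tnnt1 had 15.1, 28.3, 32.3 and 25.9 CPM in WT and 19.7, 21.1, 24.5 and 25.1 CPM in KO (-0.17 ± 0.19). The gene lies 1922 bases from Tnni3 on the same strand of chromosome 7, as Tnni1 lies 25364 bases from Tnnt2 on chromosome 1.

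Titin and its partners at both ends gave no called difference. Ttn (chromosome 2, 76703980 to 76982547, minus strand) had 3557, 2959, 2836 and 2496 CPM in WT and 2707, 2995, 2994 and 3090 CPM in KO. All KO libraries lay within the WT range, and the log2 fold change was -0.0076 ± 0.13 (SE, 95% interval -0.29 to 0.28). Counts per gene do not resolve the stiff and compliant isoforms of titin. Tcap had 1596, 3102, 2310 and 2050 CPM in WT and 2647, 1958, 1931 and 2211 CPM in KO (-0.05 ± 0.19), with the lowest and the highest library both WT.

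At the M-band, where myosin tails and the end of titin are cross-linked, both positive values of this role group were found. Myom2 (myomesin 2) had 603.2, 546.5, 408.7 and 669.3 CPM in WT and 694.7, 627.9, 490.6 and 855.8 CPM in KO. KO replicate 8 was the highest and WT replicate 3 the lowest of overlapping groups, and the log2 fold change came to 0.26 ± 0.18 (edgeR adjusted p = 0.812). Obsl1, a cytoskeletal linker of titin and myomesin, had 118.4, 123.6, 129.8 and 114.1 CPM in WT and 167.6, 140.1, 108.7 and 145.8 CPM in KO. In KO, 3 libraries exceeded every WT library and replicate 7 was under all of them (0.21 ± 0.13, adjusted p = 0.797 in edgeR, and 0.0091 with trends in GC and length taken out). Myom1 and Cmya5 (myospryn) stood at -0.11 ± 0.18 and -0.05 ± 0.11.

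Of the 5 lowest log2 fold changes among the 36, those of Xirp1, Pdlim3, Flnc and Xirp2 moved toward 0 without a single WT heart, and that of Myot rested on 2 WT hearts. WT replicate 2 held the highest level of 21 of the 36 genes (58.3%), while it held the highest level of 19.8% of all tested genes. In 8 of the 36 its CPM was over 1.5 times the next highest of the other 7 libraries, and in 4 it was over 2 times, against 1.07% and 0.390% of all tested genes. These were Xirp1, Flnc, Xirp2 and Pdlim3 above 2 times, and Pdlim5, Synpo2l, Ankrd1 and Csrp3 above 1.5 times. WT replicate 2 was not high throughout: Ttn, Nebl, Tmod1, Cmya5, Obsl1 and Myom2 stood at 0.954 to 1.02 times the mean of the other 3 WT hearts.

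**Figure D4:**
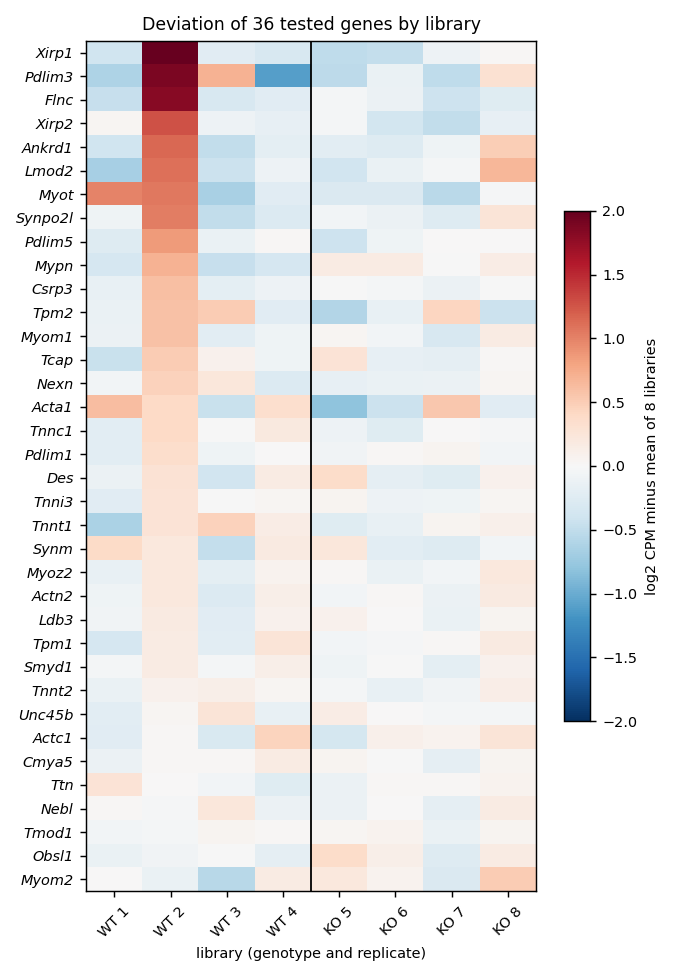
Log2 CPM of the 36 tested genes minus their mean over the 8 libraries, with genes ordered by WT replicate 2 and a line between genotypes (colour scale -2 to 2). WT replicate 2 is high from Xirp1 down to about the middle of the order and near 0 for Ttn, Nebl and Tmod1.

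Xirp1, which encodes an actin-binding Xin repeat protein of the intercalated disc, had 140.8, 739.0, 158.8 and 148.4 CPM in WT and 131.2, 133.6, 173.7 and 188.8 CPM in KO. WT replicate 2 was 4.95 times the mean of the other WT hearts, which lay within the KO range. The log2 fold change of -0.92 ± 0.46 (SE, adjusted p = 0.777 in edgeR) was 0.07 ± 0.14 without that library. Xirp2, the second Xin repeat gene, had 280.0, 658.4, 255.1 and 242.9 CPM in WT and 265.8, 212.5, 194.9 and 243.4 CPM in KO. Its value of -0.65 ± 0.28 (adjusted p = 0.772 in edgeR) became -0.18 ± 0.13 without WT replicate 2. Ankrd1, a titin-binding ankyrin repeat protein whose gene responds to stretch, had 675.0, 1979.8, 630.9 and 775.2 CPM in WT and 768.4, 742.5, 837.4 and 1255 CPM in KO. KO replicate 8 was the second high library here. The log2 fold change was -0.17 ± 0.32 with all libraries, 0.38 ± 0.18 without WT replicate 2 (adjusted p = 0.968 in edgeR) and -0.38 without KO replicate 8.

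At the Z-disc, Flnc (filamin C, an actin cross-linker that is recruited to damaged sarcomeres) had 193.6, 934.6, 213.7 and 226.5 CPM in WT and 259.2, 245.9, 199.6 and 223.5 CPM in KO. Apart from WT replicate 2 all hearts lay between 193.6 and 259.2 CPM, and the log2 fold change moved from -0.76 ± 0.42 (adjusted p = 0.784 in edgeR) to 0.14 ± 0.13 without it. Pdlim3, an actinin-associated PDZ and LIM protein gene, had 17.3, 98.1, 43.2 and 12.4 CPM in WT and 18.5, 24.3, 18.7 and 32.9 CPM in KO. Here WT replicate 3 was high as well and WT replicate 4 the lowest of all, and the value went from -0.85 ± 0.49 to -0.04 ± 0.34 without WT replicate 2. Pdlim5, of the same family, had 309.6, 662.9, 336.1 and 376.7 CPM in WT and 275.8, 348.7, 370.2 and 369.8 CPM in KO (-0.30 ± 0.21, and 0.0014 ± 0.14 without WT replicate 2).

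Myot (myotilin, a Z-disc cross-linker best known from skeletal muscle) had the smallest unadjusted p of the list. It had 39.1, 40.8, 12.6 and 16.7 CPM in WT and 16.0, 16.0, 13.5 and 19.3 CPM in KO. Here 2 WT hearts, replicates 1 and 2, were high and the other 2 lay within or just under the KO range, with a log2 fold change of -0.75 ± 0.32 (SE, adjusted p = 0.768 in edgeR, -0.49 ± 0.30 without WT replicate 2). The summed skeletal muscle markers were 5.94 and 7.93 CPM in those 2 hearts and 7.60 and 7.53 CPM in the others. Actn2, by contrast, had 1607.5, 1962, 1405 and 1848 CPM in WT and 1641, 1737, 1575 and 1919 CPM in KO, with a log2 fold change of 0.01 ± 0.13. The actinin-binding genes Myoz2, Ldb3, Nebl and Pdlim1 stood between -0.06 and 0.02, and Nexn and Synpo2l at -0.21 ± 0.15 and -0.20 ± 0.27.

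**Figure D5:**
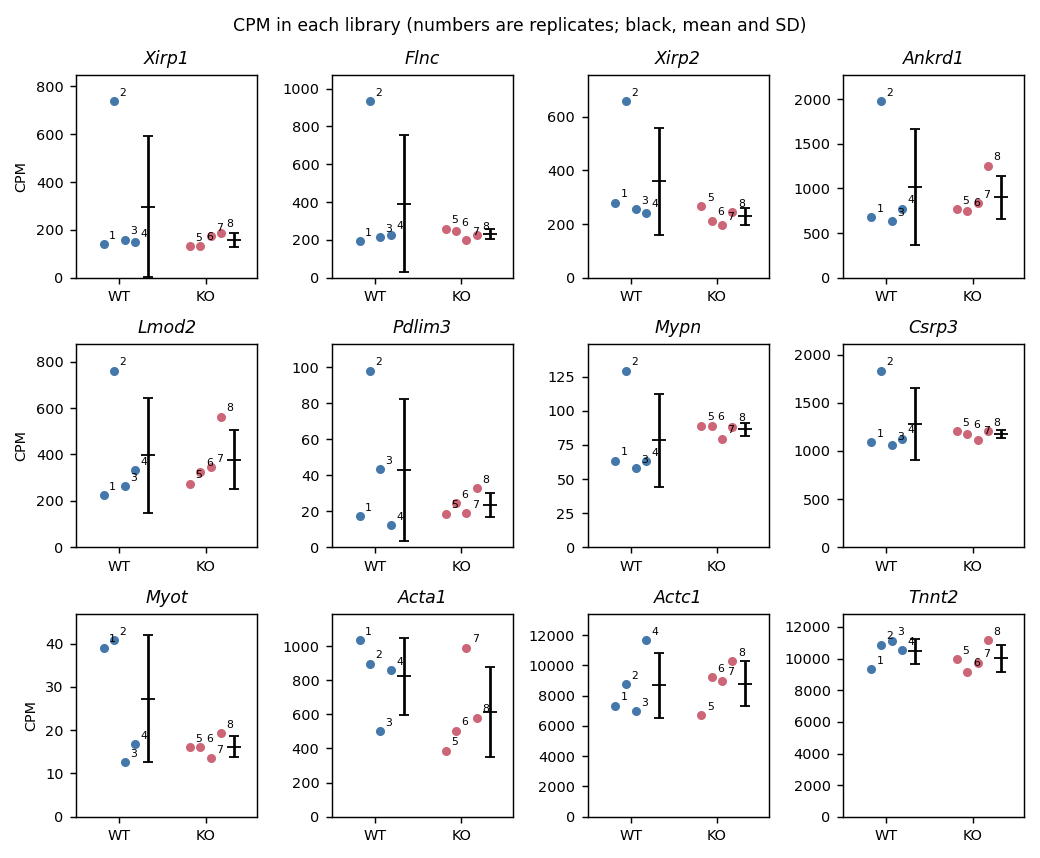
CPM of 12 genes in each library (numbered by replicate, blue WT and red KO), with mean and SD in black and axes from 0. WT replicate 2 lies far above the other hearts for Xirp1 (739.0 CPM) and Flnc (934.6 CPM), and 4 KO libraries of Mypn lie above the other 3 WT libraries.

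Mypn, Lmod2 and Csrp3 were chosen for display after their values were seen. Mypn (myopalladin, which links actinin to nebulette) had 63.4, 129.6, 57.8 and 63.2 CPM in WT and 89.2, 89.2, 79.5 and 88.4 CPM in KO. WT replicate 2 was above all KO libraries and the other WT libraries below all of them, and the log2 fold change came to 0.14 ± 0.22 (edgeR adjusted p = 0.926), or 0.013 with trends in GC and length taken out. Without WT replicate 2 it was 0.49 ± 0.11 (61.5 ± 3.14 CPM in 3 WT against 86.6 ± 4.70 CPM in 4 KO hearts), with an unadjusted p of 4.95e-04 and an adjusted p of 0.422 in edgeR. In that setting 0 of the 36 passed (0.0222% of all genes tested did), and Mypn was the 1 gene of the 36 with an unadjusted p under 0.05 and the 1 whose groups did not overlap, against 4.93% and 6.07% of all genes tested. Lmod2, a leiomodin that lengthens thin filaments, had 225.1, 761.7, 264.0 and 332.7 CPM in WT and 274.2, 326.4, 346.2 and 562.3 CPM in KO. Its high libraries were WT replicate 2 and KO replicate 8, as for Ankrd1, and the log2 fold change was -0.07 ± 0.34, 0.46 without the first and -0.33 without the second. Csrp3 (muscle LIM protein, a Z-disc stretch sensor) had 1089.8, 1834, 1058.5 and 1128 CPM in WT and 1205, 1180.1, 1116 and 1204.5 CPM in KO (-0.12 ± 0.17).

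The spread within groups is given with and without the same library. The median coefficient of variation of the 36 genes was 22.9% in WT and 11.4% in KO, and 28 of the 36 varied less in KO. Over all tested genes the medians were 16.8% and 12.9%. Without WT replicate 2 the WT median of the 36 was 12.8%. That heart was singled out by its high values of these genes, so a smaller spread without it is no separate result. The steadiest gene in WT was Tmod1, tropomodulin 1, which caps the pointed end of the thin filament (268.9 ± 9.43 CPM in WT, against 270.8 ± 16.8 CPM in the 4 KO hearts, SD). Smyd1, a methyltransferase for myosin assembly, had 301.9 ± 21.2 and 281.5 ± 23.2 CPM, and Unc45b, a myosin chaperone, 244.3 ± 37.4 and 248.1 ± 15.1 CPM.

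By role, no group had a called gene. The 10 tested thin filament genes had a median log2 fold change of -0.07 (3 positive, 7 negative), and -0.02 without WT replicate 2. The 6 genes of titin, Tcap and the M-band went from -0.03 to 0.12, and the 13 Z-disc genes from -0.12 (4 positive, 9 negative) to 0.08 (9 positive, 4 negative). The 3 genes Xirp1, Xirp2 and Ankrd1 went from -0.65 to 0.07. Over the 36 genes 21 were positive and 15 negative without WT replicate 2, with a median of 0.04 beside 0.0019 over all genes. These shifts follow from leaving out a heart picked for its high values of these genes, and are no separate result. Des and Synm stood at 0.02 ± 0.17 and -0.17 ± 0.18.

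The immediate early genes, which respond to handling and acute stress, did not set WT replicate 2 apart as a list. Their sums over 10 genes were 335.1, 944.5, 1005 and 962.2 CPM in WT and 289.2, 339.3, 1252 and 522.7 CPM in KO. Of the 10, 0 passed (1 positive, 9 negative, median -0.38). Atf3, a stress-induced transcription factor, stood out within the list, with 260.5 CPM in WT replicate 2 and 5.94 to 25.1 CPM in the other 7 libraries. Btg2 was also highest in WT replicate 2, at 229.3 CPM against 44.7 to 195.2 CPM. The remaining genes of the list were highest in other libraries. Cardiomyocyte markers summed to 78030 CPM in WT replicate 2 and 64440 to 79750 CPM in the others, and the 6 fibroblast markers to 1342 CPM against 858.7 to 1199. Among the fibroblast markers, Dcn had 723.1 CPM in WT replicate 2 against 410.5 to 552.3 CPM in the others. Col1a2 and Pdgfra were also highest there, while Col1a1, Col3a1 and Postn were highest in other WT libraries. The part of these in the values of that heart was not tested.

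Other sarcomere genes, outside the 37, also gave no call. Of 37 listed genes 32 were tested and 0 passed, with 14 positive, 18 negative and a median of -0.05. Ankrd23, an ankyrin repeat gene of the Ankrd1 family, stood at -0.41 ± 0.18 and Cfl2, the muscle cofilin, at -0.25 ± 0.13 (adjusted p of 0.772 and 0.783 in edgeR). Both were highest in WT replicate 2 and stood at -0.24 ± 0.15 and -0.13 ± 0.12 without it. The median of this list was then 0.03. Among 12 tested regulators of sarcomere genes, 0 passed (9 positive, 3 negative, median 0.19). Those with the smallest p were Mef2d at 0.33 ± 0.15, Nkx2-5 at 0.24 ± 0.13 and Mrtfa, a cofactor of serum response factor, at 0.25 ± 0.15 (adjusted p from 0.772 to 0.797 in edgeR). Without WT replicate 2, in which Mef2d was lowest, they stood at 0.21 ± 0.12, 0.25 ± 0.14 and 0.18 ± 0.16. The median of the regulators was then 0.11.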

How the data were processed

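Poly(A) RNA libraries of 8 left ventricles were made with a stranded kit, per the labels' protocols. The submitters' processing notes name STAR 2.7.1a and GRCm38 (mm10). The authors deposited raw read counts per Ensembl gene, 1 column per heart. What counted the reads, with which strand setting and annotation, is not given in the sources used here. Exons of 10 of the 37 genes overlap another annotated gene. Where the overlap is on the opposite strand, counting without strand would mix the reads. For 2 genes it is on the same strand (Tnni3 with Dnaaf3, and Nexn), where strand does not separate the reads.

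Columns were matched to samples by name, and symbols, positions and transcript lengths were taken from GENCODE M21 (36345 of 38293 identifiers matched). The test was edgeR 4.0.16 (R 4.3.3), two-sided, by glmQLFit and glmQLFTest after filterByExpr with a minimum count of 10 and TMM scaling, and genotype was its only term. All 13336 tested genes entered the Benjamini-Hochberg adjustment, and a gene passed under 0.05. Dividing a log2 fold change by the root of its F statistic gave its SE, and the t quantile its 95% interval. Isoform shares used counts per length of the principal transcript, and an exact permutation test. Promoter windows are RefSeq's. In counts simulated for KO against WT (13184 genes), the test made 8 false calls. It found 34.8% of the genes changed 1.5-fold, 81.8% of those changed 2-fold and 100% of those changed 4-fold. The simulated counts followed the fitted trend of spread with expression level, without the extra spread of single genes. More changed genes were planted than the 3 called in the real counts, which loosens the adjusted threshold. Power for genes as uneven between hearts as Xirp1 or Flnc may therefore be lower.

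The genes, lists and tests were chosen with earlier results of these data known. Values per library are given for the 10 genes with the smallest p, for the main thin filament genes and for Ttn, Actn2, Tcap, Ankrd1 and Myom2, and for 3 genes chosen after their values were seen. From the other sarcomere genes and the regulators, the 3 with the smallest p are named, except 1 that is not reported here. The labels do not say whether the hearts came from separate litters. The alternatives were 2 other scalings, 2 other count filters, DESeq2 1.42.0, limma-voom 3.58.1, a robust fit, removal of mitochondrial genes or of a GC and length trend, an adjusted p of 0.10 and each library left out.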

Additional observations from a re-analysis of the deposited data

Results flagged for a closer look

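Of 82 groups of 4 libraries examined (37 genes and 4 isoform shares in both genotypes), 9 held a library whose gap to the nearest other, as a share of the range, was above Dixon's 95% critical value for 4 samples. Chance flags about 1 in 20 groups, and the genes of 1 library are not independent. The lone library was WT replicate 2 in 7 of the 9. It held 739.0 CPM of Xirp1 where the other WT libraries had 140.8 to 158.8, and 934.6 CPM of Flnc against 193.6 to 226.5. Xirp2 stood at 658.4 CPM against 242.9 to 280.0, and Ankrd1 at 1980.0 CPM against 630.9 to 775.2. Csrp3 was at 1834 CPM against 1058.5 to 1128, Myom1 at 1422 CPM against 818.8 to 889.9, and Mypn at 129.6 CPM against 57.8 to 63.4.

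In KO replicate 7, Mypn was at 79.5 CPM below 88.4 to 89.2 in the other KO libraries. The same heart held an Acta1 share of 10.1% of Acta1 plus Actc1, against 5.28 to 5.53% in the other KO hearts.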

How the results depend on the processing

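No gene of the 36 passed under any of the 17 alternative fits or at an adjusted p of 0.10, and the smallest adjusted p was 0.372. DESeq2 gave no adjusted p for Xirp1, so that gene was not judged there. Among all genes DESeq2 called 11 and edgeR 10 without a filter, beside 3 as reported. With 1 library left out, the edgeR count was 2 (KO replicate 6 left out) to 6 (WT replicate 4 left out). Of the 36 log2 fold changes, 14 kept their sign in every alternative, but not their size. Obsl1 went from 0.21 to 0.0091 and Mypn from 0.14 to 0.013 with the GC and length trend removed, Myom2 from 0.26 to 0.12 without KO replicate 8, and Acta1 lay between -0.75 and -0.25 over left-out libraries. With library totals in place of TMM, the sign changed for Actc1 (-0.026), Tpm1 (-0.0054), Actn2 (-0.033), Myoz2 (-0.024), Ldb3 (-0.039), Tmod1 (-0.039), Des (-0.023), Unc45b (-0.032). After removal of the GC and length trend it changed for Actn2 (-0.072), Ldb3 (-0.045), Pdlim1 (0.057), Tmod1 (-0.015), Des (-0.087), Unc45b (-0.081), and with limma-voom for Ttn (0.0025), Lmod2 (0.052). With 1 library left out, 22 genes changed sign, over the ranges Actc1 -0.077 to 0.19, Actn2 -0.076 to 0.085, Ankrd1 -0.38 to 0.38, Cmya5 -0.094 to 0.0025, Csrp3 -0.20 to 0.11, Des -0.11 to 0.13, Flnc -0.98 to 0.14, Ldb3 -0.067 to 0.071, Lmod2 -0.33 to 0.46, Myom1 -0.20 to 0.10, Myoz2 -0.050 to 0.10, Nebl -0.12 to 0.0090, Pdlim1 -0.12 to 0.080, Pdlim5 -0.43 to 0.0014, Synpo2l -0.38 to 0.24, Tcap -0.19 to 0.14, Tmod1 -0.013 to 0.054, Tnni3 -0.13 to 0.040, Tpm1 -0.053 to 0.14, Ttn -0.086 to 0.093, Unc45b -0.042 to 0.12 and Xirp1 -1.15 to 0.070. The median over the 36 was lowest at -0.13 (WT replicate 1 left out) and highest at 0.039 (WT replicate 2 left out). The Acta1 share difference lay between -3.53 (KO replicate 7 left out) and -1.16 percentage points (WT replicate 1 left out) and that of Tpm2 from -0.187 to -0.066, while that of Tnnt1 ran from -0.044 to 0.0040 and that of Tnni1 from -0.0011 to 0.00018. Division by the union of exons, added after the data were seen, or by no length changed no direction or call of the 4 shares, although on the union of exons the Tpm2 difference was -0.296 and that of Tnnt1 -0.0462, beside -0.122 and -0.0149. No paired analysis was possible because WT and KO share no replicate numbers. The cause of these changes was not tested. The SE of Xirp1 was 0.46 with and 0.14 without WT replicate 2, so the spread between hearts set the width of its interval, while Tnni1 was limited by its counts.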
